A study of Mus musculus with 11 samples.

Results

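Markers of CA1 pyramidal neurons were followed in hippocampal punches of mice given the chemotherapy AC-T or saline. CA1 is the output field of the hippocampus proper: its pyramidal neurons are excitatory cells that receive input from CA3 and send axons to the subiculum and the cortex, and they are needed for spatial and episodic memory. Single genes that are high in CA1 and low in CA3 and the dentate gyrus are used to tell its neurons from those of the neighbouring fields. The members were chosen by symbol: Wfs1, Fibcd1, Pou3f1, Mpped1, Man1a, Nov, Gpr161 and Spink8. All 8 were found among the 17118 genes of the table, all 8 passed the filter on low counts, and none was listed at 0 in any library.

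AC-T joins doxorubicin, cyclophosphamide and paclitaxel, drugs used against breast cancer. The 5 AC-T mice (501, 502, 503, 600 and 602) had 8 weekly intraperitoneal injections, 4 of 2 mg/kg doxorubicin with 50 mg/kg cyclophosphamide and then 4 of 5 mg/kg paclitaxel. The 6 saline mice (201, 202, 203, 300, 301 and 302) had 0.9% sodium chloride on the same 8 occasions. All were female C57/BL6 mice (C57/BL6J in the genotype label), 12 weeks old at treatment, and the titles carry a 1-month label. Frozen brains were cut in the coronal plane and sampled with a punch of 0.2 mm, so each library holds the RNA of 1 punch site of 1 mouse, with whatever fields and neighbouring tissue that site held. The series text states 6 mice per group, and 5 AC-T libraries were analysed here.

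Library totals lay between 23.4 and 32.1 M counts. Xist, an RNA of the inactive X chromosome, had 13057 to 22963 counts in 10 libraries but 0 in saline 300, against the female label of that mouse, so calls that change without saline 300 are named. The first digit of the mouse number splits each treatment in 2 (6 and 5 for AC-T, 3 and 2 for saline), and no digit holds both treatments. The labels do not say what the digit stands for, and treatment and digit cannot be told apart.

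Of the CA1 markers Mpped1 alone passed the test after AC-T with all saline mice pooled, and it did not pass against saline mice 300 to 302 alone. Fibcd1, Spink8 and Man1a differed between the saline series, so their values depended on which saline mice they were set against. All 8 had a positive log2 fold change (AC-T minus saline), with a median of 0.91 against −0.003 over the 15353 genes tested, of which 49.4% were positive. Mpped1 rose, the only 1 of the 8 to pass (edgeR quasi-likelihood test, Benjamini-Hochberg adjusted p under 0.05), and 0 fell, where 8.47% of all genes tested passed, 4.89% higher and 3.58% lower, so that 1 of 8 is near the background. An unadjusted p under 0.05 was reached by 6 of the 8, against 24.9% of all genes, 14% in the upward direction. In 3 members, Mpped1, Nov and Gpr161, every AC-T library lay above every saline library, as for 4.42% of all genes, and without AC-T 503 this held for 6 members and 6.52% of all genes. With series as a random effect 0 members passed in limma-voom. The number of members passing in edgeR was 0 without any 1 of AC-T 502, AC-T 602, saline 202 or saline 300, 2 without saline 201 and 3 without saline 302. Without saline 300 the median was 0.93. With the level of thalamic markers as a covariate the median was −0.15, with values given further on. That level did not overlap between the groups, so this fit can hardly tell it from treatment.

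**Figure D1:**
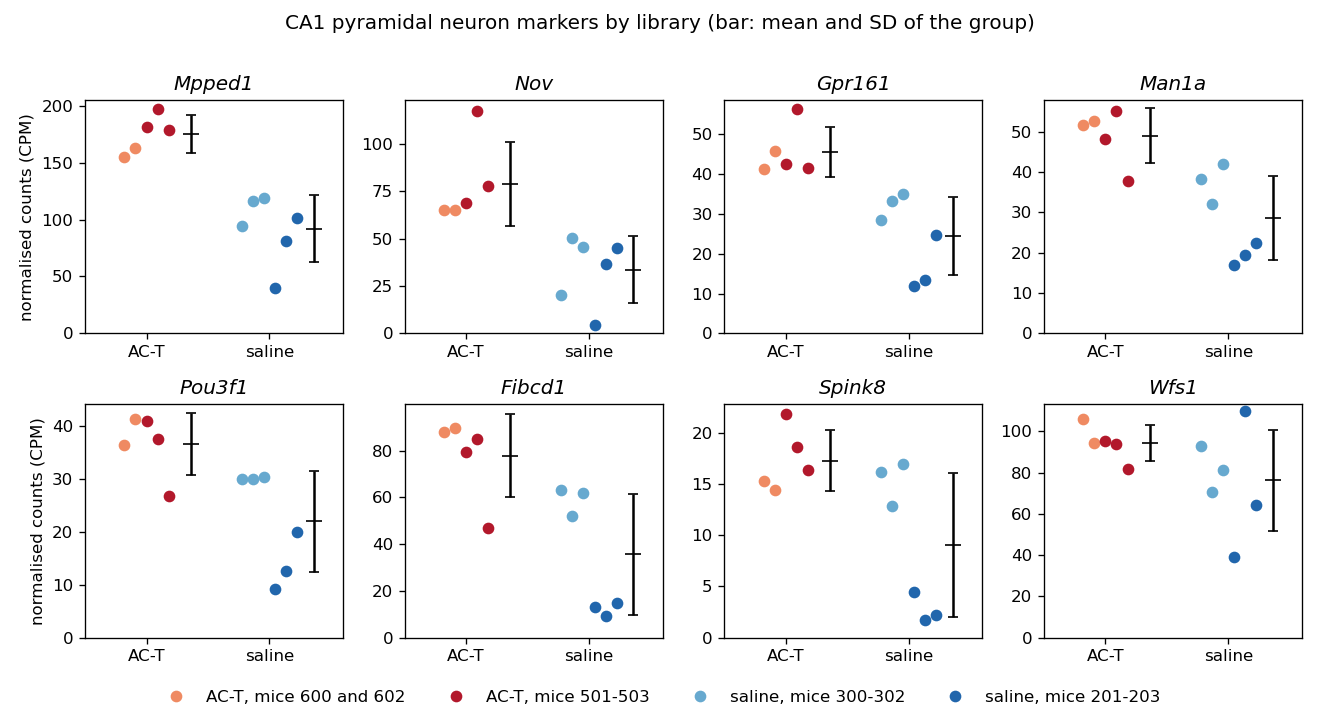
Normalised read counts (CPM, linear axis from 0) of each CA1 marker, 1 point per library, with the mean and SD of each group as a black bar. Mpped1, Nov and Gpr161 separate AC-T from saline completely. Saline mice 201 to 203 lie below all other libraries for Fibcd1, Spink8, Man1a, Pou3f1 and Gpr161, and Wfs1 overlaps throughout.

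Mpped1 encodes a metallophosphoesterase found mainly in brain. Its level, as read counts per 1 M of library total (CPM), was 182, 197, 179, 155 and 163 in AC-T 501, 502, 503, 600 and 602. In saline mice it was 94.8, 116 and 119 in 300, 301 and 302, and 40.0, 80.8 and 101 in 201, 202 and 203. The lowest AC-T library thus exceeded the highest saline library. The mean was 175 ± 16.6 CPM after AC-T and 92.1 ± 29.2 CPM after saline (SD, n = 5 and 6), a log2 fold change of 0.93 ± 0.22 (SE; edgeR adjusted p = 0.0255) or 1.90-fold. The call ended without AC-T 502 (edgeR adjusted p = 0.0686), AC-T 602 (0.0520), saline 202 (0.0538) or saline 300 (0.0507). It also ended with mouse-number series as a random effect (limma-voom adjusted p = 0.0962 with an estimated correlation), without AC-T mice 501 to 503 (edgeR adjusted p = 0.234) and without AC-T mice 600 and 602 (0.0717).

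Nov, also named Ccn3, encodes a secreted matricellular protein of the CCN family. It had 69.0, 118, 77.7, 65.0 and 65.3 CPM in AC-T 501, 502, 503, 600 and 602. Saline 300, 301 and 302 had 20.5, 50.4 and 45.6 CPM, and saline 201, 202 and 203 had 4.14, 36.5 and 45.0 CPM. The groups did not overlap, and the highest library of the 11, AC-T 502, held 28.4 times the level of the lowest, saline 201. The log2 fold change was 1.22 ± 0.43 (SE; edgeR adjusted p = 0.101), and without saline 201, the saline mouse with the least Nov, it was 0.99 with an adjusted p of 0.0347.

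Gpr161 encodes an orphan G protein-coupled receptor of the primary cilium that restrains hedgehog signalling. It stood at 42.5, 56.4, 41.6, 41.4 and 45.9 CPM in AC-T 501, 502, 503, 600 and 602. Saline values were 28.6, 33.2 and 35.0 CPM in mice 300 to 302 and 11.9, 13.5 and 24.7 CPM in mice 201 to 203. The 2 saline series did not overlap with each other or with AC-T. The log2 fold change of 0.89 ± 0.25 (SE) missed the threshold (edgeR adjusted p = 0.0527) and passed without saline 302 (0.0362).

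Man1a encodes a Golgi mannosidase that trims N-linked glycans. It had 48.1, 55.2, 37.7, 51.6 and 52.7 CPM in AC-T 501, 502, 503, 600 and 602. It had 38.3, 32.02 and 42.0 CPM in saline 300, 301 and 302 and 16.9, 19.5 and 22.4 CPM in saline 201, 202 and 203. Only AC-T 503 reached down into the saline range, between saline 301 and saline 300. The log2 fold change was 0.78 ± 0.22 (SE; edgeR adjusted p = 0.0528), and it passed without saline 302 (0.0250).

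Pou3f1 encodes a POU-domain transcription factor, also known as Oct6. AC-T libraries 501, 502, 503, 600 and 602 had 40.8, 37.5, 26.7, 36.3 and 41.2 CPM. Saline 300, 301 and 302 were close to one another at 30.01, 29.8 and 30.2 CPM, and saline 201, 202 and 203 had 9.26, 12.5 and 19.9 CPM. AC-T 503 again lay within the saline range. The log2 fold change was 0.73 ± 0.28 (SE; edgeR adjusted p = 0.132).

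Fibcd1 encodes a transmembrane receptor with a fibrinogen-like domain that binds acetylated sugars, and Spink8 encodes a Kazal-type inhibitor of serine proteases. Fibcd1 stood at 79.4, 84.9, 46.8, 88.0 and 89.8 CPM in AC-T 501, 502, 503, 600 and 602. Saline 300, 301 and 302 had 62.9, 52.0 and 61.7 CPM, whereas saline 201, 202 and 203 had 13.1, 9.18 and 14.7 CPM. Spink8 had 21.8, 18.6, 16.4, 15.3 and 14.4 CPM after AC-T in the same order. Saline 300, 301 and 302 had 16.2, 12.9 and 17.0 CPM, and saline 201, 202 and 203 had 4.48, 1.70 and 2.17 CPM. For both genes the AC-T and saline mice 300 to 302 overlapped, and saline mice 201 to 203 stood far below all others. The pooled log2 fold changes were 1.12 ± 0.48 for Fibcd1 and 0.93 ± 0.52 for Spink8 (SE; edgeR adjusted p = 0.169 and 0.298), averages over saline mice that fell into 2 separate levels. The smallest member count was that of Spink8 in saline 202, 44 counts (exact Poisson 95% interval 31.97 to 59.07, for counting error only).

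Wfs1 encodes wolframin, an endoplasmic reticulum membrane protein that acts in calcium handling, and it also marks neurons of the upper neocortex and the amygdala. It had 95.6, 94.1, 81.8, 106 and 94.5 CPM in AC-T 501, 502, 503, 600 and 602. Saline 300, 301 and 302 had 92.8, 70.8 and 81.3 CPM, and saline 201, 202 and 203 had 39.0, 110 and 64.1 CPM. The highest and the lowest library were thus both saline mice of 1 series. The log2 fold change was 0.31 ± 0.20 (SE; edgeR adjusted p = 0.387).

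Spread relative to the mean, with all saline mice pooled, differed between the groups for every member. The coefficient of variation of the AC-T libraries ran from 9.07% (Wfs1) to 28.2% (Nov), and that of the saline libraries from 31.7% (Mpped1) to 78.1% (Spink8), with the saline value the larger in all 8. The pooled saline value also holds the difference between the 2 saline series. Within saline mice 300 to 302 alone the coefficient was below that of AC-T for Fibcd1, Pou3f1, Man1a, Gpr161 and Spink8. It was above that of AC-T for Wfs1, Mpped1 and Nov, and within saline mice 201 to 203 for all 8. As an SD, the spread of Nov was larger after AC-T (22.2 CPM, against 17.9 CPM after saline). Saline 201 was the lowest library for 6 members and saline 202 for the other 2, Fibcd1 and Spink8. Among AC-T libraries AC-T 503 was the lowest for 4 members. The highest library was an AC-T one for 7 members and saline 202 for Wfs1. Fewer CA1 neurons in a punch and less of these RNAs per neuron cannot be told apart in bulk tissue.

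The comparison was then divided by mouse number, in a model with 4 group means that share 1 estimate of spread, to ask whether AC-T differed from both saline series. Against saline mice 201 to 203, 6 of the 8 rose (of all genes 11.4% passed and 5.83% were higher), with a median log2 fold change of 1.39. Fibcd1 rose 6.39-fold (log2 2.68 ± 0.22 SE; edgeR adjusted p = 0.000371) and Spink8 6.11-fold (2.61 ± 0.27; 0.000615). Man1a rose 2.52-fold, Pou3f1 2.63-fold, Gpr161 2.68-fold and Mpped1 2.32-fold. Nov had a log2 fold change of 1.39 ± 0.56 and Wfs1 of 0.42 ± 0.26, and neither passed. Every AC-T library exceeded all 3 of these saline mice for 7 members, Wfs1 being the exception, and for 9.8% of all genes.

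Against saline mice 300 to 302, 0 of the 8 passed in this edgeR model with 4 group means. At an unadjusted p under 0.05, 3 of the 8 were higher. Of all genes 7.25% passed, 4.31% were higher and 14.9% were higher at the unadjusted p. The median log2 fold change was 0.41. Nov stood furthest from 0 at 0.96 ± 0.55 (SE), then Mpped1 at 0.64 ± 0.23, Gpr161 at 0.49 ± 0.21, Fibcd1 at 0.43 ± 0.19 and Man1a at 0.40 ± 0.14. Pou3f1, Wfs1 and Spink8 had 0.29 ± 0.21, 0.22 ± 0.26 and 0.13 ± 0.22. All AC-T libraries still lay above saline 300, 301 and 302 for Mpped1, Nov and Gpr161, 3 of 8 members, as for 12.4% of all genes. Without saline 201, and likewise without saline 203, 1 member passed, and the share of all genes in those fits is not given here.

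The saline series differed from each other. Saline mice 300 to 302 were higher than saline mice 201 to 203 for 3 members, where 1.03% of all genes passed and 0.528% were higher, and the median over the 8 was 0.93. Fibcd1 averaged 58.9 ± 5.96 CPM in mice 300 to 302 and 12.3 ± 2.85 CPM in mice 201 to 203 (SD, n = 3 each; log2 difference 2.25 ± 0.23 SE; edgeR adjusted p = 0.00575). Spink8 averaged 15.4 ± 2.17 and 2.78 ± 1.49 CPM in the same order of mice (2.48 ± 0.28; edgeR adjusted p = 0.00785), and Man1a 37.4 ± 5.05 and 19.6 ± 2.77 CPM (0.93 ± 0.16; edgeR adjusted p = 0.0351). The call of Man1a ended without any 1 of 6 libraries, AC-T 600, AC-T 602 and saline 201, 202, 300 and 302, with adjusted p up to 0.168. The 2 saline series did not overlap for 5 members (Fibcd1, Spink8, Man1a, Pou3f1 and Gpr161), all higher in mice 300 to 302, as for 12.3% of all genes, and they overlapped for Mpped1, Nov and Wfs1. Without saline 203, 5 members passed, and the share of all genes in that fit is not given here.

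Between AC-T mice 600 and 602 and AC-T mice 501 to 503, 0 of the 8 passed in edgeR and 0 had an unadjusted p under 0.05 (of all genes 0.117% passed, 0.0782% were higher and 13.5% had an unadjusted p under 0.05). The log2 differences lay between −0.43 ± 0.66 (Nov) and 0.34 ± 0.23 (Fibcd1). These comparisons share the AC-T libraries or the saline libraries with one another, so they are not independent.

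**Figure D2:**
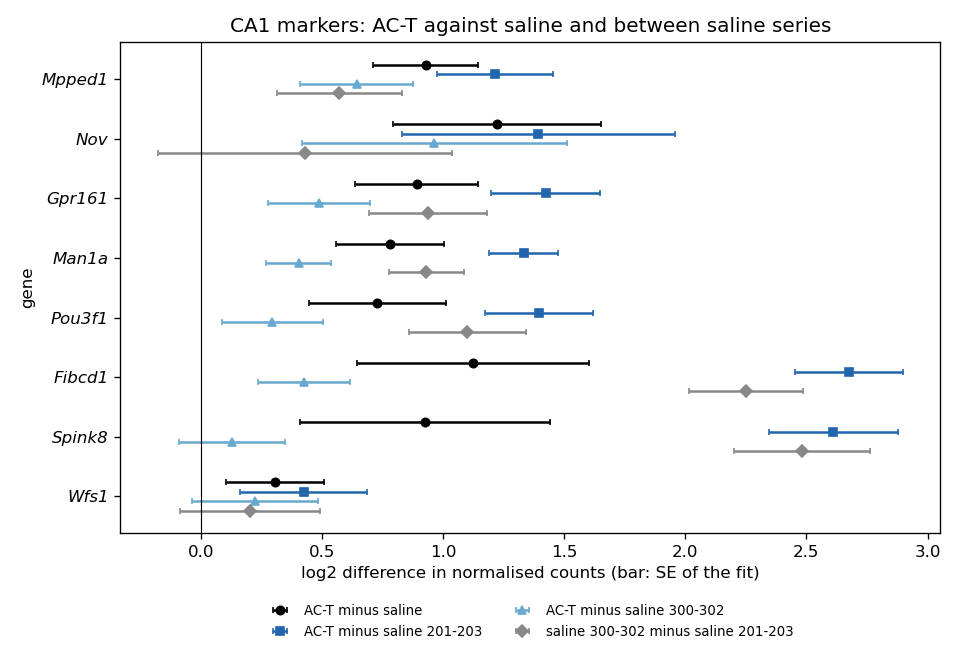
Log2 differences in normalised read count for each CA1 marker, with the SE of the fit as the bar: AC-T minus all saline, AC-T minus each saline series, and saline mice 300 to 302 minus saline mice 201 to 203. Fibcd1 and Spink8 lie above 2 on this scale against saline mice 201 to 203 (2.68 and 2.61), whereas against saline mice 300 to 302 they lie at 0.43 and 0.13.

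Ratios between members within a library, which need no scaling between libraries, showed which markers moved together. The ratio of Fibcd1 to Spink8 counts lay between 2.85 and 6.23 in AC-T libraries and between 2.92 and 6.78 in saline libraries, although the highest library held 9.78 times the Fibcd1 and 12.9 times the Spink8 level of the lowest. The ratio of Man1a to Gpr161 lay between 0.905 and 1.25 after AC-T and between 0.907 and 1.44 after saline. The ratio of Wfs1 to Fibcd1 was 1.05 to 1.75 after AC-T, 1.32 to 1.47 in saline mice 300 to 302, and 2.97, 11.9 and 4.36 in saline 201, 202 and 203. Saline 202 therefore had the highest Wfs1 level of the series together with the lowest Fibcd1 and Spink8 levels. The ratio of Nov to Mpped1 was 0.379 to 0.596 after AC-T and 0.382 to 0.452 in 4 saline mice, against 0.216 in saline 300 and 0.104 in saline 201.

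**Figure D3:**
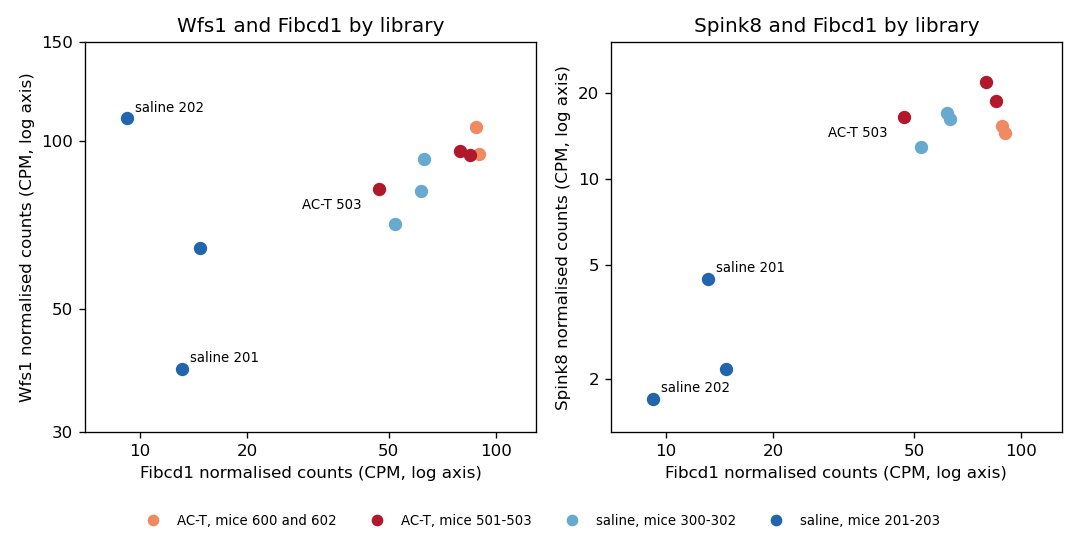
Levels of Wfs1 (left) and Spink8 (right) against that of Fibcd1, 1 point per library, CPM on log axes. Spink8 is low wherever Fibcd1 is low, in saline mice 201 to 203, whereas Wfs1 in saline 202 (110 CPM) is at the level of the AC-T libraries (81.8 to 106 CPM).

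The promoters of Wfs1 and Fibcd1, whose count ratio in saline 202 (11.9) lay far outside its AC-T range, are shown to let their sequences be compared. They come from RefSeq on build GRCm38.p6 (an older build than the GRCm39 named for the counts), as the 250 bases before and the 50 after the annotated start. The Wfs1 window is chr5:36988933-36989232 and the Fibcd1 window chr2:31845956-31846255, both on the minus strand, and they are printed 5′ to 3′ with any E-box in capitals. The E-box, CANNTG read on both strands, is the core motif bound by basic helix-loop-helix factors such as the neuronal NeuroD family.
Wfs1: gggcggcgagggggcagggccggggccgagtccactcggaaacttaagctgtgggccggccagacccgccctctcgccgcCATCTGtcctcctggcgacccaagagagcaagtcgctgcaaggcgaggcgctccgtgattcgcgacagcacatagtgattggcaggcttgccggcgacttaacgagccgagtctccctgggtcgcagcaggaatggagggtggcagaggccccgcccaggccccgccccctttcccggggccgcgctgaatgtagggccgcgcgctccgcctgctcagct
Fibcd1: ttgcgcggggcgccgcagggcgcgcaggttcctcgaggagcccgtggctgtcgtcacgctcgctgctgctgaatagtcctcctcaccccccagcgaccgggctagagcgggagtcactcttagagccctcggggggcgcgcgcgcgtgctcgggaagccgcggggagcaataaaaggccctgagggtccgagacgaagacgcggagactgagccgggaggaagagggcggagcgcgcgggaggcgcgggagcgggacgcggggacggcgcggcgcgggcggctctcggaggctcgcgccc

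The Wfs1 window held 1 E-box, CATCTG, whose other strand reads CAGATG, and the Fibcd1 window held 0. Of the 32851 windows in all, 72.3% held at least 1 E-box and 17.2% held CAGATG on either strand. The Fibcd1 window had 74.3% G and C and 46 CpG dinucleotides, the Wfs1 window 70.0% and 30, and the median of all windows was 52.7% and 7. Windows were found for 5 of the 8 members, 7 windows in all. ATGCAAA, the core of the octamer bound by POU factors such as the product of Pou3f1, was in none of these 7 on either strand and in 4.63% of all windows.

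Other genes placed the members among their neighbours. Of 11 further CA1 genes 1 rose and 0 fell, with a median log2 fold change of 0.38. Tyro3, a receptor tyrosine kinase, rose 1.47-fold (137 ± 7.43 CPM after AC-T and 92.9 ± 14.1 CPM after saline; SD, n = 5 and 6; edgeR adjusted p = 0.00937). Ndst4, a heparan sulfate sulfotransferase of dorsal CA1, had a log2 fold change of 0.51 ± 0.26 (SE; edgeR adjusted p = 0.254).

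Of 9 genes of hippocampal pyramidal neurons in general 4 rose and 0 fell (median 0.44). Neurod6, a basic helix-loop-helix factor of pyramidal neurons, rose 1.65-fold (193 ± 21.8 CPM after AC-T and 117 ± 26.4 CPM after saline; edgeR adjusted p = 0.0150). Nrgn, which binds calmodulin in dendrites, rose 1.36-fold (edgeR adjusted p = 0.0157), and Crym, a thyroid hormone binding protein, rose 1.93-fold (0.0269), a call lost when AC-T 502, AC-T 503 or saline 203 was left out. Of these 9 genes 2 passed in each of those 3 fits, and 0 without saline mice 201 to 203. With series as a random effect 0 of the 9 passed in limma-voom (adjusted p = 0.0604 for Neurod6, 0.0561 for Nrgn and 0.114 for Crym with an estimated correlation).

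Markers of CA2, CA3 and the dentate gyrus had medians near or under 0, whereas 4 subiculum genes had a median of 0.23, with 0 passing in edgeR. Of 6 CA3 genes 0 passed in edgeR (median 0.01), and of 10 dentate granule cell genes 0 passed (median −0.18), at 0 also in each fit that left out 1 library, in DESeq2 and in limma-voom. Their summed levels overlapped between the groups: 207 to 257 CPM after AC-T and 183 to 267 CPM after saline for CA3, and 321 to 563 and 393 to 593 CPM for the dentate list. The lowest dentate sum was that of AC-T 503, which was also the lowest AC-T library for Fibcd1, Pou3f1, Man1a and Wfs1. Of 5 CA2 genes 0 rose and 2 fell: Cacng5, a transmembrane AMPA receptor regulator, fell to 0.583 of the saline level (14.9 ± 2.41 CPM after AC-T and 25.7 ± 3.86 CPM after saline; edgeR adjusted p = 0.00555), and Pcp4, a calmodulin regulator, to 0.561 (0.0217, lost without AC-T 502 or AC-T 602, and with limma-voom adjusted p = 0.0657 with an estimated correlation). Rgs14, a signalling regulator that defines CA2, had a log2 fold change of 0.62 ± 0.23 (SE; edgeR adjusted p = 0.121).

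Marker genes of regions outside the hippocampus also differed between the groups. Like the other lists, the thalamic one was chosen with earlier results of these data known, so its count is a description and not an independent test. All 16 thalamic genes were tested, and 13 fell and 0 rose (median −1.002). Their summed level was 748 to 1084 CPM after AC-T, 1417 to 1521 CPM in saline mice 300 to 302 and 1853 to 2154 CPM in saline mice 201 to 203, the reverse of the order of the CA1 sums, which were 508 to 662, 384 to 432 and 139 to 294 CPM. Of the 16, only Gbx2 was listed at 0, in 1 library. Adarb1, an RNA-editing enzyme, fell to 0.593 of the saline level (279 ± 33.3 CPM after AC-T and 471 ± 42.2 CPM after saline; edgeR adjusted p = 0.00125), Amotl1, an angiomotin, to 0.534 (0.00192), and Ntng1, netrin G1, to 0.520 (0.00197). With the mean log2 level of the thalamic list as a covariate 0 members passed in edgeR. That level did not overlap between the groups (4.41 to 5.26 in AC-T and 5.55 to 6.45 in saline libraries), so the fit can hardly tell it from treatment. In this fit 6 of the 8 members had a negative log2 fold change, from −0.59 ± 0.64 (Fibcd1) to −0.07 ± 0.39 (Gpr161). Mpped1 had 0.29 ± 0.38 there. Whether the site of the punch plays a part in the CA1 levels was not tested.

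Of 11 neocortical genes 6 rose and 1 fell (median 0.85), and their summed level was 324 to 361 CPM after AC-T and 195 to 294 CPM after saline, with none at 0. Tbr1, a T-box factor of deep-layer projection neurons, rose 2.33-fold, Rprm, a cell-cycle regulator and deep-layer marker, 1.81-fold, and Lamp5, a membrane protein of cortical neurons, 1.51-fold (edgeR adjusted p = 0.000598, 0.00552 and 0.00707). Between saline mice 300 to 302 and saline mice 201 to 203, 0 of the 11 passed in edgeR, with a median of −0.23. In that comparison the median was 0.93 for the CA1 members, 0.40 for the genes of pyramidal neurons in general and −0.04 for the further CA1 genes. The part of neocortical tissue in the CA1 result was not tested. Of 8 interneuron genes 3 rose, Sst, Lhx6 and Npy (1.62-, 1.67- and 1.48-fold), and 1 fell (Npy had a limma-voom adjusted p = 0.0631 with an estimated correlation), with summed levels of 760 to 905 CPM after AC-T and 659 to 876 CPM after saline. Of the 5 choroid plexus genes 0 passed, with sums of 78.0 to 5444 CPM after AC-T and 17.1 to 5557 CPM after saline.

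**Figure D4:**
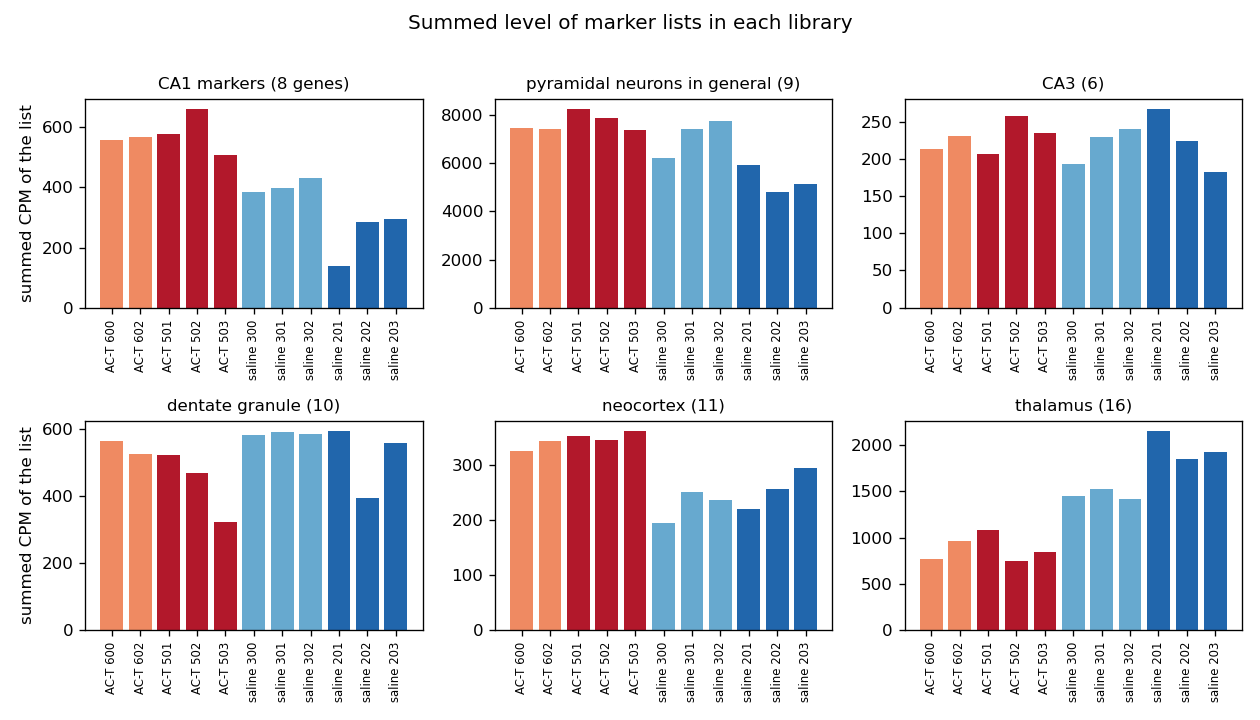
Summed CPM of 6 marker lists in each library (bars from 0), AC-T at the left and saline at the right of each panel. The CA1 sum is lowest and the thalamic sum highest in saline mice 201 to 203, and the CA3 sum overlaps between the groups (207 to 257 CPM after AC-T and 183 to 267 CPM after saline).

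The genes nearest to the mean profile of the members over the 11 libraries were found by the root mean square difference of centred log2 CPM, a description of likeness over 12264 genes with a median of 0.745. The 8 nearest were Sstr4 (0.254), Cpne8 (0.274), Cadps2 (0.283), Kcnh7 (0.297), Rprml (0.303), Igfbp4 (0.313), Zdhhc23 (0.327) and Ndst4 (0.340), the last of them also in the list of further CA1 genes. Sstr4 encodes a somatostatin receptor, Cadps2 a protein of dense-core vesicle release, Kcnh7 a potassium channel subunit and Igfbp4 a binding protein of insulin-like growth factors. Their log2 fold changes (AC-T minus saline) lay between 0.51 (Ndst4) and 0.80 (Cadps2). They were picked by their profile over the same libraries, so these values restate the choice and get no test. The members themselves lay 0.191 (Gpr161), 0.198 (Pou3f1), 0.245 (Man1a) and 0.297 (Mpped1) from the mean of the other 7, but 0.610 (Fibcd1), 0.644 (Wfs1), 0.824 (Spink8) and 0.861 (Nov). Without saline 201, 2 of the 8 nearest genes stayed among the 8 nearest.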

How the data were processed

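RNA of hippocampal punches, 1 mouse per library, was sequenced from stranded libraries of polyadenylated RNA, per the labels' protocols. The submitters' processing notes name FastQC 0.11.9, Salmon 1.9.0 and build GRCm39. The annotation release is not given in the sources used here. The authors deposited expected counts per gene (13.7% to 14.7% of the values per library had a fraction), which were rounded to whole numbers. Salmon divides reads shared by similar genes by probability.

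The members and gene lists were chosen with earlier results of these data known. All 15353 genes kept by filterByExpr (minimum count 10) were fitted together with edgeR 4.0.16 in R 4.3.3 (trimmed mean of M values scaling, quasi-likelihood F test, 2-sided), with adjustment over all of them and a threshold of 0.05. CPM uses the scaled library sizes. Fold changes are AC-T over saline with the SE of the fit, and the biological coefficient of variation was 0.174. The script was checked on simulated data. Mouse-number series were compared in a 4-mean model. Named genes were all members, up to 3 genes per other list with the smallest p, and the 8 nearest profiles; 1 gene of these is not reported here. Alternatives were 3 other scalings, 2 filters, DESeq2 1.42.0, limma-voom (limma 3.58.1), robust dispersion, unrounded values, 2 thresholds, a thalamic covariate, series as a random effect, and omission of each series and library.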

Additional observations from a re-analysis of the deposited data

Results flagged for a closer look

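Fibcd1 in AC-T 503 (46.8 CPM) lay apart from the other 4 AC-T libraries (79.4 to 89.8 CPM), with a gap of 0.758 of the group's range. Nov in AC-T 502 (118 CPM) lay apart from the other 4 (65.0 to 77.7 CPM), with a gap of 0.759 of the range. These are 2 of 16 groups of libraries examined, where chance marks about 1 in 20. The AC-T difference also depended on the saline mice it was measured against. Against saline mice 201 to 203 less that against saline mice 300 to 302 it was larger by a log2 value of 2.25 for Fibcd1 (edgeR adjusted p = 0.00575), 2.48 for Spink8 (0.00785) and 0.93 for Man1a (0.0351), by the test between the saline series themselves.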

How the results depend on the processing

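All 8 members had a positive log2 fold change in each alternative except the thalamic covariate. There it was −0.15 for Wfs1, −0.59 for Fibcd1, −0.18 for Pou3f1, −0.15 for Man1a, −0.066 for Gpr161 and −0.58 for Spink8, with −0.35 for Ndst4, 0.047 for Pcp4, −0.14 for Rgs14, −0.24 for Sstr4 and −0.27 for Zdhhc23 among the other named genes. The member median was then −0.15, 0 members passed, and 1 gene passed in all (1 higher, 0 lower). The thalamic level did not overlap between the groups, so that fit can hardly tell it from treatment. Over omissions of 1 library the median lay between 0.74 and 1.02, and 0 to 3 members passed.

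Mpped1, Man1a and Gpr161 passed in DESeq2 and in limma-voom (3 members each). At a threshold of 0.1, 3 members passed, and at 0.01, 0. With series as a random effect, without AC-T mice 501 to 503, or without AC-T mice 600 and 602, 0 members passed. Without saline mice 300 to 302, 6 passed (median 1.40), and without saline mice 201 to 203, 1 passed (median 0.40).

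The genes passing over the whole table numbered 1301 (751 higher, 550 lower). They were 2559 in DESeq2 (1376 and 1183), 293 with series as a random effect (169 and 124), 549 without saline mice 201 to 203 (395 and 154), 317 without AC-T mice 501 to 503 (112 and 205) and 409 without AC-T mice 600 and 602 (215 and 194). At 0.1 they were 2295 (1347 and 948) and at 0.01 they were 228 (136 and 92). With library totals 487 were higher. Over omissions of 1 library they ran from 625 to 1229 (higher 348 to 745, lower 277 to 544). Members higher against saline mice 201 to 203 ran from 6 to 7, against saline mice 300 to 302 from 0 to 1, and between the saline series from 2 to 5. The causes were not tested. No paired analysis was possible because the groups share no mouse number.

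The lowest member value was 44 counts. The limits are 5 and 6 mice, punches of unknown position, and mouse-number series that hold 1 treatment each.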
